A study of Homo sapiens with 6 samples.

Results

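The genes described here encode the core proteins of the 3 conserved complexes that give epithelial cells an apical and a basolateral side. They were chosen by name. The list held PARD3, PARD6A, PARD6B, PRKCI and PRKCZ of the PAR complex, SCRIB, LLGL1, LLGL2 and DLG1 of the Scribble module, and CRB3 of the Crumbs complex. All 10 were measured, out of 18417 genes, and each was read by 1 probe set. They were measured on 6 single-channel arrays of MCF10A cells, a human mammary epithelial cell line that forms no tumours, in a version that the labels name with ErbB2. There were 3 arrays labelled RB-proficient and 3 labelled RB-deficient, all from cells grown for 7 days in 3-D culture in reconstituted basement membrane. The retinoblastoma protein RB restrains E2F transcription factors, and the design compared the cells by its state. The sample titles tag the groups miNS and miRB, and no label says what these stand for. The labels do not say how ErbB2 was introduced or whether a line is 1 clone.

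The PAR and Crumbs complexes act at the apical side and at the tight junction, and the Scribble module acts at the basolateral side. The atypical protein kinases C phosphorylate LGL proteins and so keep them off the apical membrane, while the Scribble module keeps the PAR complex off the basolateral one. In mammary acini this opposition orients cells around a lumen, and activated ERBB2 is known to bind PAR6 and atypical protein kinase C and to disturb that order in MCF10A acini.

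Values are log2 intensities after scaling of the arrays to the same median, and 0 is the floor of the scale. Differences are RB-deficient minus RB-proficient (3 arrays in each group) and were tested with limma over all 18417 genes, with Benjamini-Hochberg adjustment and a threshold of 0.05. The labels do not tell whether the arrays of a group stem from separate cultures, so the p-values rest on a spread between samples that may be technical. With 3 arrays per group the precision is limited. Intensities of different probe sets have no common scale, so levels are compared for the same gene only.

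The arrays differed in ways that touch every result below. Genes had a median SD of 0.40 in RB-proficient cells and 0.84 in RB-deficient cells. Over all genes, which are not independent replicates, the correlation with RB-proficient arrays was 0.83 to 0.88 for RB-deficient array 3 and 0.68 to 0.75 for RB-deficient arrays 1 and 2. Correlations were 0.90 to 0.92 among RB-proficient arrays and 0.67 to 0.75 among RB-deficient arrays, the lowest between RB-deficient arrays 1 and 2. At the floor were 4.71%, 1.62% and 0.684% of genes in RB-deficient arrays 1 to 3, and 0.326% to 0.684% in RB-proficient arrays. RB1 itself overlapped between the groups (difference −1.95, SE 0.76, adjusted p 0.302 in limma), so the directions rest on the labels. ERBB2 differed by −1.31 (SE 0.48, adjusted p 0.288 in limma), and its groups did not overlap. ACTB, the cytoskeletal actin gene, differed by −1.92 (SE 0.50) and GAPDH by −1.23 (SE 0.47), and in both the groups did not overlap. Of the 9 measured reference genes, to which ACTB and GAPDH belong, 7 were lower and 2 higher, from −1.92 to 0.24. In 3 of them the groups did not overlap, all lower, against 15.3% of all genes. The median difference of all genes was −0.21. Epithelial markers were above the floor in all 6 arrays for 9 of 9 measured genes, and 7 of them had a lower mean in RB-deficient cells. Their summed scaled intensity was 3281 to 6392 in RB-proficient cells and 2054 to 3005 in RB-deficient cells. The sums were 179 to 231 and 165 to 306 for 9 fibroblast markers (4 lower), of which COL3A1 and THY1 were at 0 in RB-deficient array 1. They were 538 to 669 and 385 to 481 for 7 endothelial markers (4 lower). For 8 leukocyte markers (3 lower) they were 409 to 530 and 320 to 367. Of the endothelial and leukocyte markers, 0 were at the floor in any array. A sum rests mostly on its brightest probe sets, so it does not show that a list changed as a whole. The median differences were −1.33, 0.32, −0.41 and 0.29 for the epithelial, fibroblast, endothelial and leukocyte markers. The part of these differences in the results below was not tested. In these bulk samples, fewer cells of a type and less RNA per cell cannot be told apart.

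Of the 10 polarity genes, 8 had a lower mean in the RB-deficient arrays, where 58.6% of all genes did, and PARD6A and PARD6B had a higher one. By limma 0 of the 10 passed an adjusted p of 0.05, against 0.00543% of all genes, and 1 (PRKCZ) had an unadjusted p under 0.05 and was lower, against 10.8% of all genes, while 0 were higher at that p, against 2.85% of all genes. The groups did not overlap for 2 genes, PRKCZ and SCRIB, both lower, against 15.3% of all genes. Before scaling of the arrays, the SCRIB groups overlapped. The median difference of the 10 genes was −0.62, which is −0.41 relative to all genes. It was −0.75, −1.17 and −0.33 in RB-deficient arrays 1, 2 and 3, beside −0.14, −0.37 and −0.14 over all genes. Without RB-deficient array 3 it was −0.997. The 9 measured reference genes had a median difference of −0.77, which is −0.56 relative to all genes, so a shift of this size was not particular to the polarity genes.

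**Figure D1:**
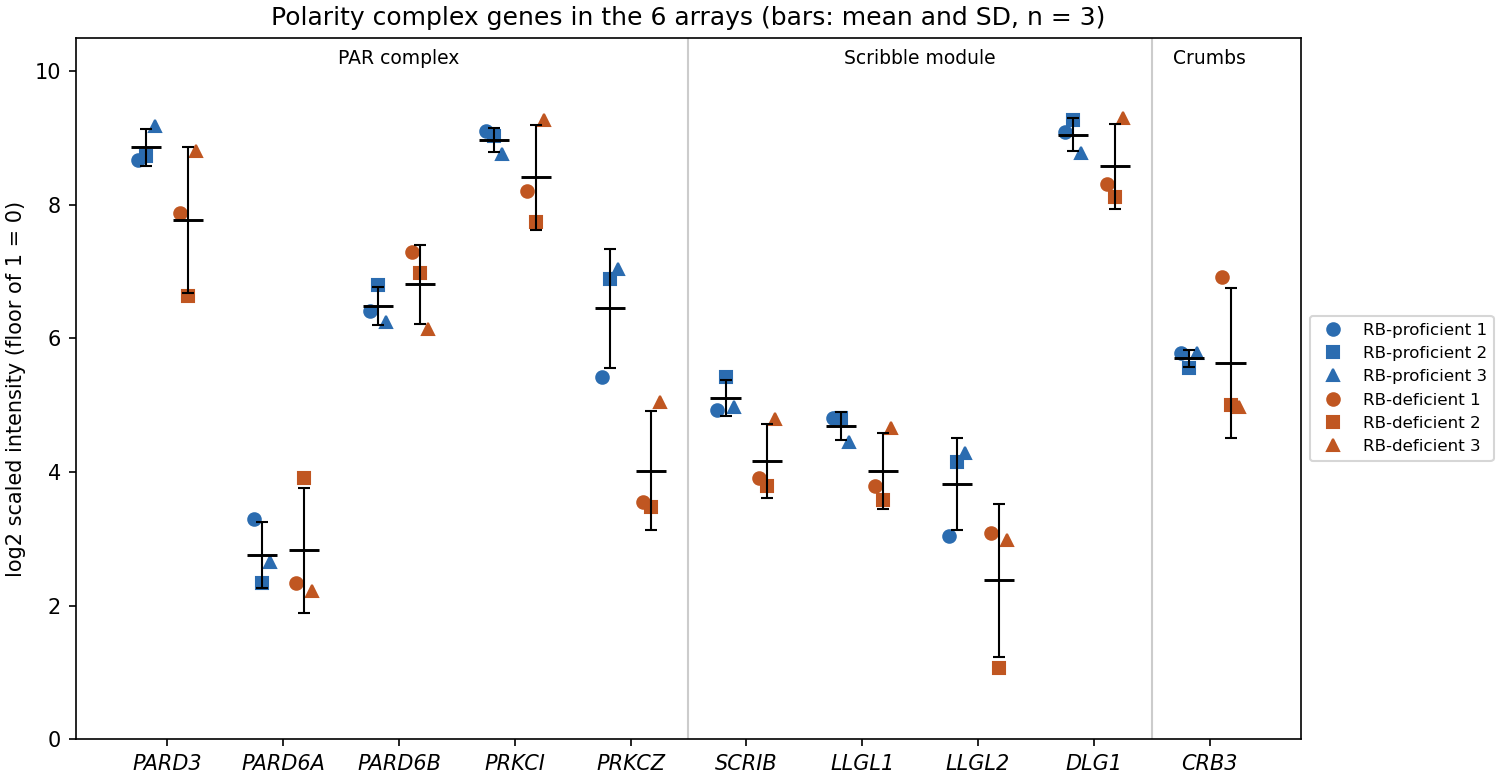
Log2 scaled intensity (vertical axis) of the 10 polarity genes in each of the 3 RB-proficient (blue) and 3 RB-deficient (orange) arrays, with the mean and SD of each group as black bars. Heights are comparable within a gene only. The colours separate for PRKCZ and SCRIB. The RB-deficient points spread more than the RB-proficient ones for 9 of 10 genes, where they did so for 81% of all genes.

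PRKCZ, which encodes the atypical protein kinase C zeta, had the largest difference of the 10. In the order of arrays 1 to 3, which is kept below, its values were 5.42, 6.88 and 7.04 in RB-proficient cells and 3.55, 3.47 and 5.04 in RB-deficient cells. All 3 RB-deficient values lay below all 3 RB-proficient ones, though only 0.38 separated RB-deficient array 3 from RB-proficient array 1. The difference was −2.43 (SE 0.65, 95% interval −3.89 to −0.96), which is 5.38-fold lower. Its adjusted p was 0.213 in limma, so it did not pass, and it stood at rank 370 of 18417 genes by p. The difference was below 0 in 18 of 18 alternative settings, from −2.94 to −1.41, with adjusted p of 0.0577 to 0.709 in limma. The smallest was with an offset of 16 added before log2, where the difference was −1.66. PRKCZ was dim in RB-deficient arrays 1 and 2, with scaled intensities of 11.7 and 11.1. With an alternative floor of 16, which lies above both, its difference was −2.10.

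PRKCI encodes the other atypical kinase, protein kinase C iota. It had values of 9.11, 9.03 and 8.77 in RB-proficient cells and 8.21, 7.75 and 9.27 in RB-deficient cells. RB-deficient arrays 1 and 2 were below every RB-proficient array, and RB-deficient array 3 was above every one of them. The difference was −0.56 (SE 0.54, 95% interval −1.78 to 0.66, adjusted p 0.667 in limma). It was −0.23 without RB-deficient array 2 and −0.99 without RB-deficient array 3.

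The kinases were therefore also compared within each array, by taking the log2 value of PRKCI minus that of PRKCZ. This quantity has no meaning as a level, since the probe sets differ, but its change between groups shows whether their log2 values changed unequally. It was 3.68, 2.14 and 1.73 in RB-proficient cells and 4.66, 4.27 and 4.23 in RB-deficient cells. Every RB-deficient array lay above every RB-proficient array, and the groups differed by 1.87 (SE 0.61). The exact two-sided permutation p was 0.1, the smallest that 3 arrays against 3 allow, and 0.3 after adjustment over 3 paralogue pairs, so the design cannot bring this below 0.05. The size was 1.47 to 2.45 with single arrays left out, and 1.13 with the offset of 16, where the exact permutation p was 0.2.

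Because the kinase genes were the pair whose groups separated within arrays, the 250 bases before their RefSeq starts are shown (GRCh38.p14, plus strand for both genes, 5′ to 3′). Capitals mark the GC box GGGCGG, which binds SP-family factors, on either strand. For PRKCZ, which has 4 listed starts, the window before the most upstream is given (chr1:2050161-2050410), and for PRKCI the window before its 1 listed start (chr3:170222174-170222423).
PRKCZ: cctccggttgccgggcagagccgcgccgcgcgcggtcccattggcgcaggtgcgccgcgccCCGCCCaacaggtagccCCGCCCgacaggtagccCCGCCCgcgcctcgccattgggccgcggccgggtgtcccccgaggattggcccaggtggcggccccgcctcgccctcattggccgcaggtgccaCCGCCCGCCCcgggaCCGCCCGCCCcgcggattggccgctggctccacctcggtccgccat
PRKCI: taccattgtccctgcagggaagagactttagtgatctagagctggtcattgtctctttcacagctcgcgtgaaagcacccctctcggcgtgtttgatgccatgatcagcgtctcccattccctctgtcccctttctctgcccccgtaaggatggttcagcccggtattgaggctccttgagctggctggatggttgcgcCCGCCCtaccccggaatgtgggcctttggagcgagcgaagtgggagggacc
The printed PRKCZ window held 7 matches to GGGCGG, some of them overlapping, and 37 CpG dinucleotides at 79.6% G and C. The windows before PRKCZ starts 2, 3 and 4 held 1, 0 and 0 matches and 12, 26 and 7 CpG dinucleotides. The contrast with PRKCI therefore depends on the start chosen. The PRKCI window held 1 match and 12 CpG dinucleotides at 58% G and C. The LLGL1 window, of a pair whose groups overlapped, held 5 matches and 47 CpG dinucleotides. Over all 35116 listed windows the medians were 11 CpG dinucleotides and 58% G and C. Windows were listed for 6 of the 10 genes (PARD6A, PRKCI, PRKCZ, LLGL1, DLG1 and CRB3), 13 windows in all, some of them overlapping. At least 1 GC box was in 9 of the 13 windows and in 42.6% of all windows. The E2F letters TTTCGCGC, TTTGGCGC and TTTCCCGC, searched on both strands, were in 0 of the 13 windows and in 2.32% of all windows. These are matches of letters, and the arrays carry no measurement of binding. The probe set of PRKCZ does not show which start was used.

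PARD3 encodes the scaffold that recruits PAR6 and the atypical kinases to the cell cortex. Its values were 8.67, 8.73 and 9.18 in RB-proficient cells and 7.88, 6.63 and 8.81 in RB-deficient cells. RB-deficient array 3 lay inside the RB-proficient range, and the other 2 lay below it. The difference was −1.09 (SE 0.62, 95% interval −2.47 to 0.30, 2.12-fold lower, adjusted p 0.464 in limma). It was −0.52 without RB-deficient array 2 and −0.05 with RB-deficient array 3 as the lone array of its group.

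PARD6A and PARD6B encode PAR6 adaptors, which link the atypical kinases to active CDC42. PARD6B had values of 6.42, 6.80 and 6.24 in RB-proficient cells and 7.29, 6.98 and 6.14 in RB-deficient cells. RB-deficient arrays 1 and 2 were above every RB-proficient array and RB-deficient array 3 was below every one. In PRKCI these positions against the RB-proficient range were reversed. The difference of PARD6B was 0.32 (SE 0.52, 95% interval −0.84 to 1.48, adjusted p 0.802 in limma). PARD6A was dim, with values of 3.30, 2.33 and 2.65 against 2.34, 3.91 and 2.22, and only RB-deficient array 2 was above the RB-proficient range. Its difference was 0.07 (SE 0.60, 95% interval −1.29 to 1.42, adjusted p 0.968 in limma), with a sign that changed in 4 alternative settings. The within-array difference of PARD6A and PARD6B changed by −0.25 (SE 0.67, exact permutation p 0.8, 0.8 after adjustment over 3 pairs).

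**Figure D2:**
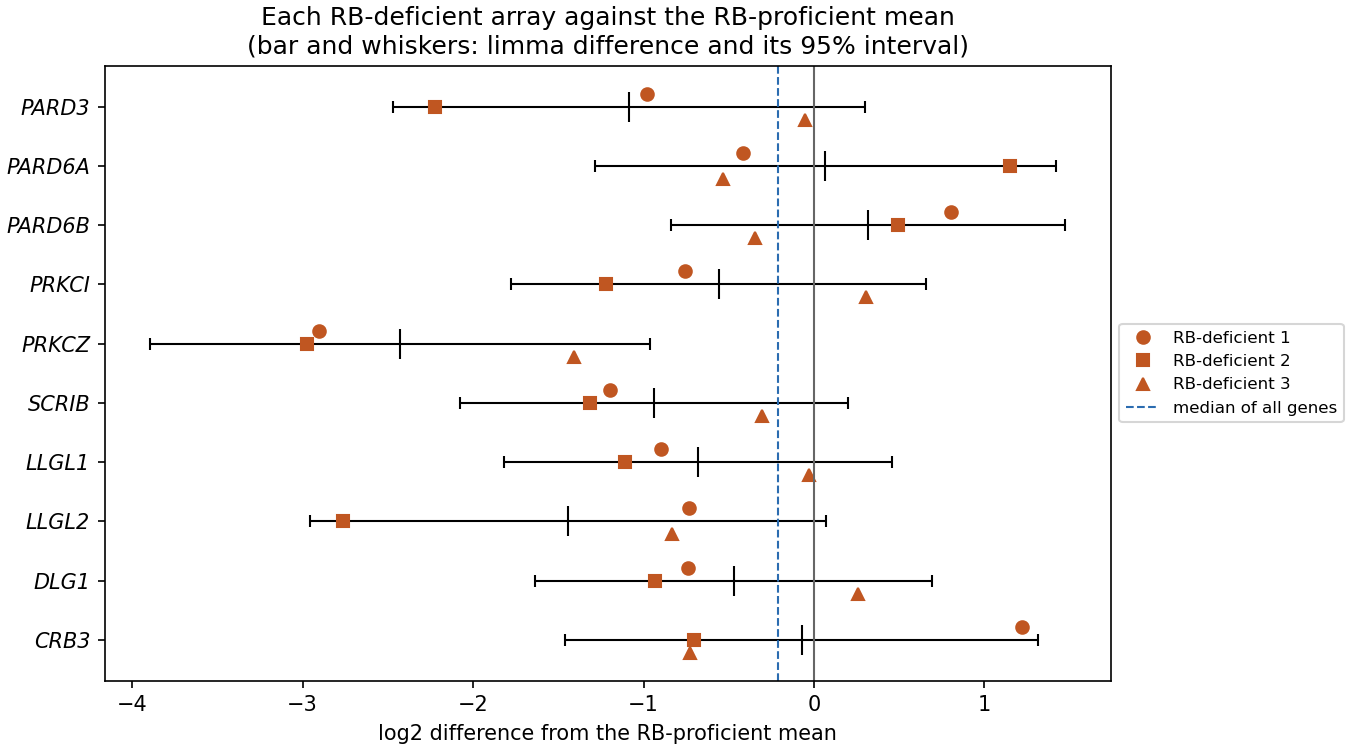
Log2 difference of each RB-deficient array from the RB-proficient mean (horizontal axis; circle, square and triangle for arrays 1, 2 and 3) for the 10 polarity genes, with limma's difference and its 95% interval in black and the median of all genes, −0.21, as a dashed line. The interval leaves out 0 for PRKCZ alone, and the triangle of RB-deficient array 3 lies to the right of the circle and square for 6 genes.

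SCRIB, the large scaffold that names the Scribble module, had values of 4.92, 5.42 and 4.98 in RB-proficient cells and 3.91, 3.79 and 4.80 in RB-deficient cells. After scaling the groups did not overlap, and RB-deficient array 3 was 0.12 below the lowest RB-proficient value. The difference was −0.94 (SE 0.51, 95% interval −2.08 to 0.20, 1.92-fold lower, adjusted p 0.446 in limma). With the offset of 16 it was −0.56, and with a floor of 16 it was −0.84. Before scaling the SCRIB groups overlapped, with intensities of 29.1 in RB-deficient array 3 and 28.3 in RB-proficient array 3. SCRIB was dim in RB-deficient arrays 1 and 2, with scaled intensities of 15 and 13.8.

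DLG1 encodes the mammalian homologue of Discs large, a scaffold of the same module. It gave 9.09, 9.27 and 8.78 in RB-proficient cells and 8.31, 8.12 and 9.31 in RB-deficient cells. As in PRKCI, RB-deficient arrays 1 and 2 were below all RB-proficient arrays and RB-deficient array 3 was above them. The difference was −0.47 (SE 0.52, 95% interval −1.64 to 0.70, adjusted p 0.705 in limma), and it was −0.24 without RB-deficient array 2 and −0.84 without RB-deficient array 3.

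LLGL1 and LLGL2 encode the LGL proteins that the atypical kinases phosphorylate. LLGL1 had values of 4.81, 4.81 and 4.45 in RB-proficient cells and 3.79, 3.58 and 4.66 in RB-deficient cells, with RB-deficient array 3 inside the RB-proficient range. Its difference was −0.68 (SE 0.51, 95% interval −1.82 to 0.46, adjusted p 0.574 in limma). LLGL2 had values of 3.03, 4.14 and 4.28 against 3.08, 1.06 and 2.99. RB-deficient array 2 was the lowest of the 6, and RB-deficient array 1 lay inside the RB-proficient range. The difference of LLGL2 was −1.44 (SE 0.67, 95% interval −2.96 to 0.07, 2.72-fold lower, adjusted p 0.378 in limma). It was −0.78 without RB-deficient array 2, and for this dim gene −0.48 with the offset of 16 and −0.14 with a floor of 16. The within-array difference of LLGL1 and LLGL2 changed by 0.76 (SE 0.71, exact permutation p 0.4, 0.6 after adjustment over 3 pairs), and it reversed with the floor of 16.

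CRB3 encodes the small transmembrane protein of the Crumbs complex in epithelia, which binds PALS1 and PAR6 at the apical membrane. Its values were 5.78, 5.55 and 5.78 in RB-proficient cells and 6.92, 4.995 and 4.97 in RB-deficient cells. RB-deficient array 1 was above every RB-proficient array, and the other 2 RB-deficient arrays were below every one. CRB3 thus lay outside the RB-proficient range in all 3 RB-deficient arrays, yet the mean difference was −0.07 (SE 0.62, 95% interval −1.46 to 1.32, adjusted p 0.968 in limma). It was −0.72 without RB-deficient array 1 and 0.26 without RB-deficient array 3.

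**Figure D3:**
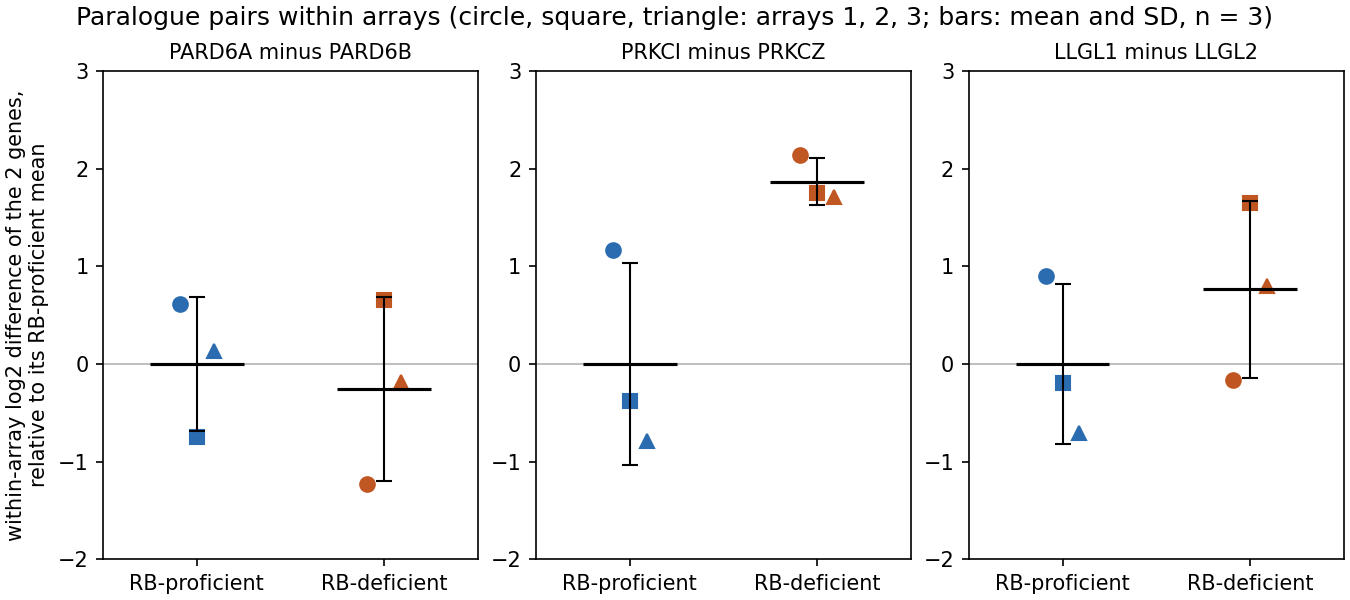
Within-array log2 difference between the genes of 3 paralogue pairs, shown relative to its RB-proficient mean (vertical axis), for 3 RB-proficient (blue) and 3 RB-deficient (orange) arrays, with mean and SD. The groups separate for PRKCI minus PRKCZ, with a difference of 1.87, and overlap for the other pairs.

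The 10 genes thus followed a few orders over the RB-deficient arrays, which were described after the values were seen. RB-deficient array 3 had the highest of the RB-deficient values for 6 of the 10 genes (PARD3, PRKCI, PRKCZ, SCRIB, LLGL1 and DLG1), where it did so for 32.8% of all genes. In PARD3, PRKCI, LLGL1 and DLG1 that array was within or above the RB-proficient range, and RB-deficient arrays 1 and 2 were both below it. RB-deficient array 1 was below all RB-proficient arrays for 6 of the 10 genes, RB-deficient array 2 for 8 and RB-deficient array 3 for 6. The same counts over all genes were 42.1%, 48% and 37.6%. The genes share the arrays and their scaling, so a common order over arrays is not evidence of common control.

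The other subunits and paralogues of these complexes were 18 genes, all measured. Of these, 12 were lower and 6 higher, 5 had an unadjusted p under 0.05 (all lower, where 10.8% of all genes were lower at that p), and 0 passed by limma after adjustment over all genes. Their median difference was −0.56, which is −0.34 relative to all genes. In 4 of them the groups did not overlap, all lower, against 15.3% of all genes. These were DLG4 (difference −1.74, SE 0.57), DLG3 (−1.40, SE 0.53) and DLG5 (−1.25, SE 0.48), which encode further Discs large scaffolds, and LRRC1 (−1.68, SE 0.56), a relative of SCRIB. DLG4 was dim in the RB-deficient arrays, with values of 3.15, 1.57 and 2.80. DLG2, another Discs large gene, differed by −0.23 (SE 0.57), and ERBIN and LRRC7, which like SCRIB encode proteins with leucine-rich repeats and a PDZ domain, by −0.66 (SE 0.55) and 0.16 (SE 0.58).

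DLG5 had the smallest p of that list after DLG4, LRRC1 and DLG3. Its values were 7.33, 7.17 and 7.78 in RB-proficient cells and 6.15, 5.87 and 6.51 in RB-deficient cells, with an SD of 0.32 in each group. RB-deficient array 3 was below all RB-proficient arrays here, unlike in DLG1. The adjusted p of DLG5 was 0.302 in limma.

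The list also held cytoplasmic partners of the Crumbs proteins. PATJ, a scaffold with many PDZ domains, had values of 8.13, 8.40 and 7.91 in RB-proficient cells and 5.78, 6.36 and 7.96 in RB-deficient cells. Its difference was −1.45 (SE 0.63, 2.73-fold lower, unadjusted p 0.0450, adjusted p 0.355 in limma). PALS1, which bridges CRB3 and PATJ, had values of 7.34, 7.94 and 7.68 against 6.44, 5.67 and 7.83 and differed by −1.01 (SE 0.62, adjusted p 0.496 in limma). In PATJ and PALS1, RB-deficient arrays 1 and 2 lay below the RB-proficient range and RB-deficient array 3 lay inside it. MPDZ, a relative of PATJ, differed by −0.99 (SE 0.68). LIN7A, LIN7B and LIN7C, which encode partners of PALS1, differed by −0.35 (SE 0.55), 0.93 (SE 0.77) and −0.45 (SE 0.54). CRB1 and CRB2, the other Crumbs genes, differed by −0.80 (SE 0.68) and 0.35 (SE 0.62). PARD3B and PARD6G, paralogues of PAR complex genes, differed by 0.13 (SE 0.56) and 0.35 (SE 0.54), and STXBP5, which encodes tomosyn, a relative of the LGL proteins, by 0.15 (SE 0.72).

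Kinases, GTPases and regulators of polarity were a list of 32 genes, 31 of them measured. Of these 26 were lower and 5 higher, 9 had an unadjusted p under 0.05 and were lower and 1 was higher, against 10.8% and 2.85% of all genes, and 0 passed by limma after adjustment. The groups did not overlap for 10 lower genes and 1 higher gene, against 15.3% and 7.12% of all genes. The list median was −0.78. MARK2, the mammalian PAR1 kinase that acts against the PAR complex at the basolateral side, had values of 6.47, 6.15 and 6.52 in RB-proficient cells and 3.82, 3.74 and 4.72 in RB-deficient cells. Its difference was −2.29 (SE 0.50, 4.89-fold lower, adjusted p 0.206 in limma), and it passed with the offset of 16 (adjusted p 0.042 in limma). With that offset 193 genes passed, 186 of them lower, and ACTB was among them. STK11 encodes LKB1, the PAR4 kinase that activates MARK kinases. Its values were 4.14, 6.21 and 5.79 against 2.34, 3.74 and 3.56, and its difference was −2.17 (SE 0.67, adjusted p 0.246 in limma). STK11 was dim in every RB-deficient array. In MARK2 and STK11 the groups did not overlap.

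PPP1CA, a catalytic subunit of protein phosphatase 1, differed by −1.88 (SE 0.49), and its groups did not overlap. PPP1CA passed with the offset of 16, as ACTB did (adjusted p 0.0474 in limma for PPP1CA). The GTPase CDC42, which activates the PAR complex through PAR6, had values of 8.11, 7.71 and 8.04 in RB-proficient cells and 8.06, 8.08 and 7.91 in RB-deficient cells. Its groups overlapped, and its difference was 0.06 (SE 0.46, 95% interval −0.97 to 1.097). RAC1, a related GTPase, differed by −0.47 (SE 0.50). TIAM1, the exchange factor for RAC1 that PARD3 binds, had values of 5.43, 5.04 and 4.20 against 3.92, 3.87 and 3.06 and differed by −1.27 (SE 0.54, adjusted p 0.346 in limma) without overlap.

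**Figure D4:**
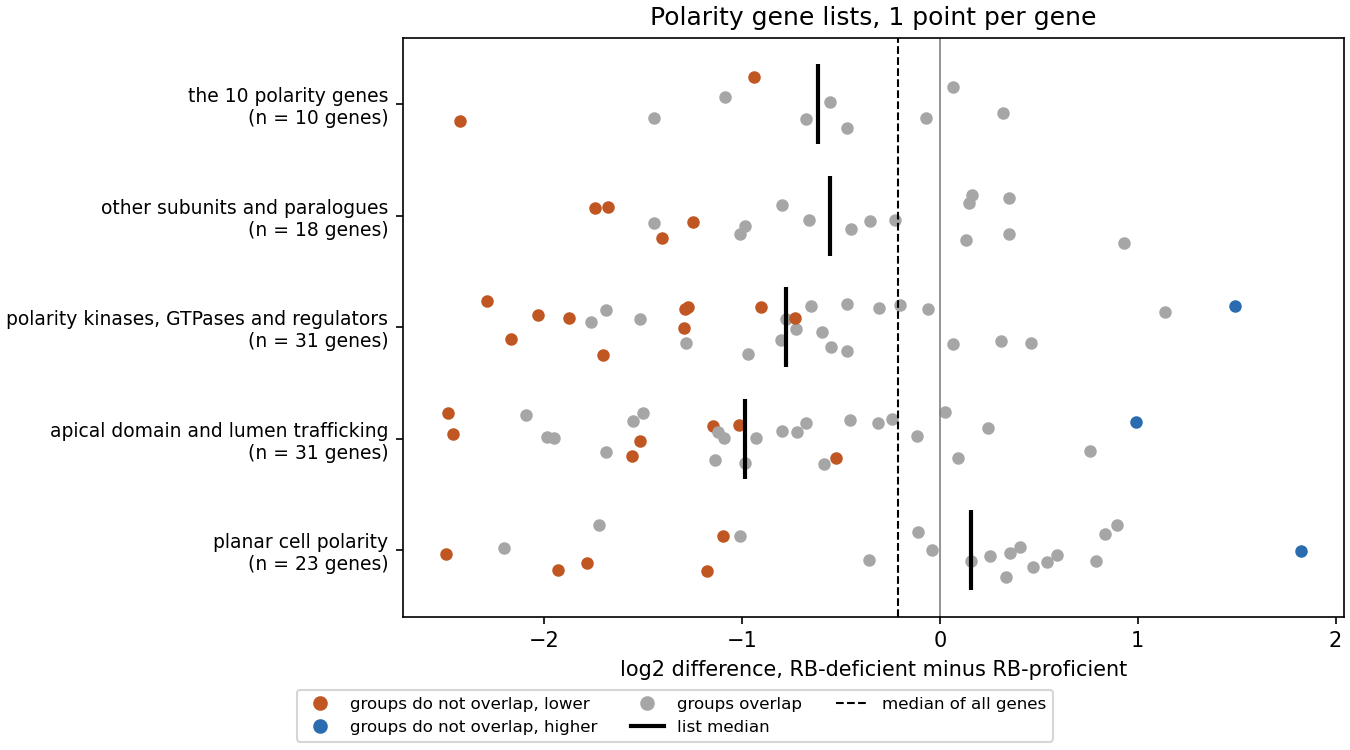
Log2 difference, RB-deficient minus RB-proficient, of each measured gene (1 point) in 5 lists, with the list median as a black bar and the median of all genes as a dashed line; orange and blue mark genes whose groups do not overlap. List medians were −0.62 for the 10 polarity genes, −0.56, −0.78 and −0.98 for the next 3 lists and 0.16 for planar cell polarity.

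Genes of the apical domain and of vesicle traffic to the lumen were 32, of which 31 were measured. Of these 26 were lower and 5 higher, 7 had an unadjusted p under 0.05 and were lower, against 10.8% of all genes, and 0 passed by limma after adjustment. The groups did not overlap for 7 lower genes and 1 higher gene, against 15.3% and 7.12% of all genes. The list median was −0.98, and it was −1.43, −0.97 and −0.26 in RB-deficient arrays 1 to 3. EXOC7, a subunit of the exocyst that tethers secretory vesicles, had values of 6.43, 6.48 and 6.05 in RB-proficient cells and 2.92, 4.56 and 4.11 in RB-deficient cells. Its difference was −2.46 (SE 0.56, 5.50-fold lower, adjusted p 0.206 in limma), it had no overlap, and it passed with the offset of 16, as ACTB did (adjusted p 0.042 in limma for EXOC7). EXOC3, another exocyst subunit, differed by −1.52 (SE 0.60), RAB11B, a GTPase of recycling endosomes, by −2.49 (SE 0.85) with RB-deficient array 1 at the floor, and CDCP1, a transmembrane protein, by −1.56 (SE 0.49). PODXL, the apical sialomucin podocalyxin, differed by −0.12 (SE 0.64), and its groups overlapped.

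Planar cell polarity genes, which orient cells within the plane of an epithelium, were 23, all measured. Of these 11 were lower and 12 higher, with a median of 0.16, which is 0.37 above the median of all genes. By limma 0 passed after adjustment, and at an unadjusted p under 0.05 there were 4 lower and 1 higher, against 10.8% and 2.85% of all genes. PRICKLE1, a core component, differed by −2.50 (SE 0.68), FJX1, which encodes a Four-jointed homologue, by −1.78 (SE 0.54) and CELSR1, an atypical cadherin, by −1.93 (SE 0.73). WDPCP, a planar polarity effector, was the gene that was higher at that p (1.82, SE 0.53). In all 4 the groups did not overlap, but these genes were named for the smallest p of the list. PRICKLE1 was dim in RB-deficient arrays 1 and 2 (2.72 and 3.12), and CELSR1 in RB-deficient arrays 1 and 3 (1.27 and 2.74). FJX1 was dim in RB-deficient array 3 (3.41), and WDPCP in the RB-proficient arrays (3.86, 3.02 and 2.57). Over the whole list the groups did not overlap for 5 lower genes and 1 higher gene, against 15.3% and 7.12% of all genes. VANGL1, a core membrane component that binds SCRIB, differed by −0.04 (SE 0.55), with a sign that changed with quantile normalization and with centring. The differences between these lists were not tested.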

How the data were processed

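The deposited table gives 1 intensity, not log-transformed, for each probe set on each array. The authors made these intensities with Affymetrix Expression Console 1.1, per the submitters' processing notes. RNA of cells and matrix together was amplified with the WT-Ovation Pico system, per the labels' protocols. How they summarised and normalized the probes is not stated in the labels. Detection calls were not used, so whether a dim gene lay above background is unknown.

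Each array was scaled to the median of the 6 array medians, a floor of 1 was applied before the log2 step. Of 33297 probe sets, 19460 had 1 gene symbol in the platform annotation, and they gave 18417 genes. Where a gene had several, the brightest on average over the 6 arrays was kept. The group comparison was a two-sided limma fit (version 3.58.1, R 4.3.3, eBayes, no covariates), which was also tested on simulated data. Paralogue pairs were compared by the within-array log2 difference, with an exact permutation test over 20 splits.

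The polarity genes and 9 further lists, 163 symbols with 155 measured, were chosen with earlier results of these data known, and no list was tested. With 1 exception, a gene that is not reported here, the text names every measured polarity subunit, up to 4 genes with the smallest p of each of the next 3 lists, and CDC42, RAC1, TIAM1, STK11, PODXL, VANGL1, ACTB, GAPDH, RB1 and ERBB2. COL3A1 and THY1 are named for their values at the floor, which were seen first. Alternatives were quantile normalization, centring, no scaling, a floor of 16, an offset of 16, omission of the dimmest 25% or 50% of genes, averaged probe sets, array weights, eBayes with trend and robust, a block for the replicate number, omission of each array in turn, and RB-deficient arrays 1 and 2 left out together. Promoter windows came from RefSeq (GRCh38.p14), and gene names from the platform annotation, with older symbols matched by gene number.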

Additional observations from a re-analysis of the deposited data

How the results depend on the processing

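By limma 0 of the 10 polarity genes passed in any of 18 alternative settings, and at an unadjusted p under 0.05 PRKCZ was alone with the main settings. The count at an unadjusted p under 0.05 was 2 with no scaling (LLGL2 added), 2 with a floor of 16 (SCRIB added), 2 with an offset of 16 and 2 with eBayes with trend and robust (PARD3 added in both). It was 1 to 3 with single arrays left out (3 without RB-deficient array 3, with PARD3 and SCRIB added) and 0 without RB-deficient arrays 1 and 2, where the lone array is assumed to vary like the others. The number of polarity genes with a lower mean was 7 to 9 in the settings that kept all 10, and 5 of the 6 left without the dimmest 50% of genes, where fewer genes were tested. Their median difference ran from −0.997 (without RB-deficient array 3) to −0.33 (without RB-deficient arrays 1 and 2). Of all genes, 1 passed with the main settings, 0 with quantile normalization, 58 with the floor of 16, 193 with the offset of 16, 0 and 4 without the dimmest 25% and 50%, 61 with trend and robust, 0 to 4 with single arrays left out and 0 without RB-deficient arrays 1 and 2. The cause was not tested. At an unadjusted p under 0.05, 20.83% of the genes were higher with the main settings and 32.53% after centring. With the replicate number as a block 1 gene passed, 8 polarity genes were lower, 1 had an unadjusted p under 0.05 and PRKCZ had an adjusted p of 0.158 in limma. Same-numbered arrays deviated together at correlations across genes of −0.12, 0.07 and −0.11, so the numbers were not taken as pairs, and the block changed no call among the polarity genes.

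The differences whose sign changed with 1 array left out, or with RB-deficient arrays 1 and 2 left out together, ran over these omissions from −0.45 to 0.78 for VANGL1, −0.73 to 0.26 for CRB3, −0.59 to 0.69 for PODXL, −0.76 to 0.82 for DLG2, −0.53 to 0.37 for PARD6A, −0.34 to 0.46 for PARD3B, −0.055 to 0.14 for CDC42. They ran from −0.50 to 1.13 for STXBP5, −0.17 to 0.83 for LRRC7, −0.69 to 0.87 for CRB2, −0.74 to 0.0069 for LIN7C, −1.06 to 0.001 for LIN7A, −0.35 to 0.65 for PARD6B, −0.99 to 0.30 for PRKCI, and from −0.84 to 0.26 for DLG1, −0.47 to 0.76 for PARD6G, −1.60 to 0.18 for PALS1, −1.07 to 0.16 for ERBIN. With array weights PARD6A was at −0.11, PARD3B at −0.066, DLG2 at 0.044 and VANGL1 at 0.25. With centring CRB3 was at 0.063, PODXL at 0.019 and VANGL1 at 0.096, with quantile normalization VANGL1 at 0.046, and with the floor of 16 DLG2 at 0.16. The change within the LLGL1 and LLGL2 pair was −0.33 with the floor of 16, and that within PARD6A and PARD6B ran from −0.71 to 0.23 over the omissions. The cause of these sign changes was not tested.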
